A study of Mus musculus with 61 samples.

Results

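The 32 libraries made from D1 nuclei of the mouse nucleus accumbens, out of 61 libraries in all, were used to compare the response to a morphine challenge after 2 histories. Members were taken by their label, as every library of the D1 cell type in the 4 treatment groups. In a group's name, the first letter is the repeated treatment and the second is the challenge. SS (8 libraries) had saline and then saline, SM (8 libraries) saline and then morphine, MS (9 libraries) morphine and then saline, and MM (7 libraries) morphine and then morphine. The contrast was (MM minus MS) minus (SM minus SS) on the log2 scale, here called the interaction. A positive value means that morphine raised a transcript more, or lowered it less, after repeated morphine than after repeated saline. It addresses whether a history of morphine primes or blunts the response to the drug.

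All mice were male and carried the Cre-dependent reporter LSL-eGFP::L10a, a green fluorescent protein joined to a ribosomal protein, together with the driver D1-Cre. The reporter marks cells by the activity of the Drd1 driver, and nuclei were sorted by that fluorescence from frozen bilateral punches. Injections ran over 15 days and the challenge came after a further 30 days without injections in the home cage, with tissue taken 1 h later. Controls carried the same transgenes and received saline by the same schedule. Morphine doses are listed in the series' text without being assigned to mice, so no result is tied to a dose. The labels do not state whether a library is 1 animal or a pool, and p-values therefore measure only the spread between libraries.

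The nucleus accumbens is the ventral striatum, a hub for reward and drug reinforcement. Its D1 neurons carry the dopamine receptor D1, which raises cyclic AMP and activates protein kinase A, the ERK kinases and the transcription factor CREB. Morphine acts on mu opioid receptors and raises dopamine in this region. Neurons answer strong input by transcribing activity-induced genes within minutes, first transcription factors such as Fos and Npas4 and then effectors that act at synapses, and phosphatases that shut ERK down. These nuclear RNA libraries were taken at a time when such transcripts are usually present.

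Depth ran from 11518606 to 26108954 counts per library. Drd1 had a median of 57.5 CPM (counts scaled to library size) in the D1 libraries and 10.9 CPM in the 29 D2 libraries, while Drd2 had 73.4 and 771 CPM. Each receptor gene was thus higher in the libraries whose label names it. The D2 marker Penk had 80.0 and 242 CPM, so D1 libraries also held RNA of D2 type. Reads also fell on 1435 olfactory and vomeronasal receptor genes, which striatal neurons are not known to transcribe, and their density was used as a background. That density would amount to 7.46% of the counts of SS replicate 1 and to 33.1% to 86.3% of the other 31 libraries. SS replicate 1 also had the lowest scaling factor, 0.405 against a median of 1.05, and 348 CPM of Slc17a7, the vesicular glutamate transporter of cortical neurons. Gene positions are on mm10. A gene was counted as above background when its mean density in D1 was at least 2 times that of the receptor genes. Because this library stands so far apart, the interaction values of genes and lists are given with it and without it.

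**Figure D1:**
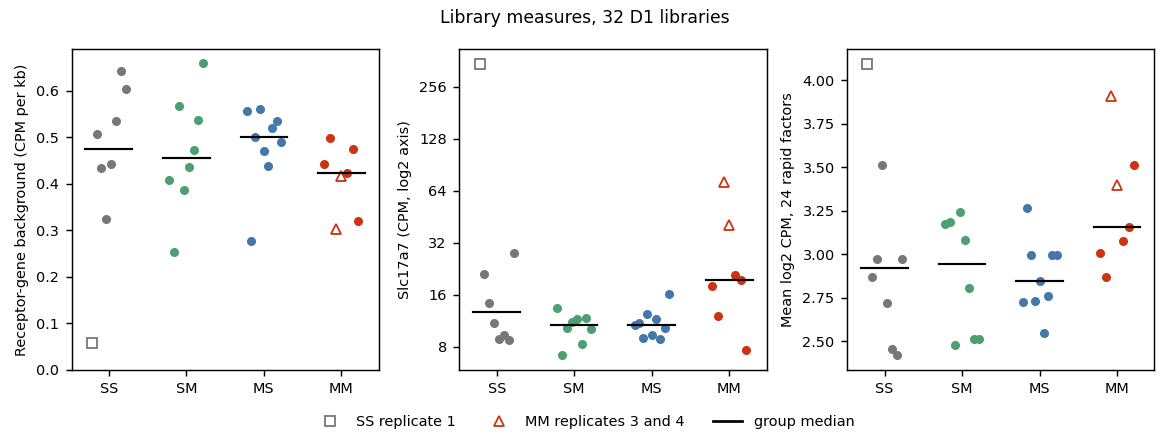
Receptor-gene background density (left, CPM per kilobase), Slc17a7 level (middle, CPM on a log2 axis) and mean log2 CPM of 24 rapid transcription factors (right) in each of the 32 D1 libraries, with the median of each group as a line. SS replicate 1 (open square) has the lowest background and the highest value on the other axes, and MM replicates 3 and 4 (open triangles) have the highest Slc17a7 of the MM group, at 71.9 and 40.3 CPM.

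No gene passed the interaction test in the 32 libraries. Of 41083 genes tested with edgeR's quasi-likelihood test, 0 (0.0%) had a Benjamini-Hochberg adjusted p under 0.05, the smallest being 0.782. At an unadjusted p under 0.05 there were 952 genes (2.32%), 552 with a positive (1.34%) and 400 with a negative interaction (0.974%), and DESeq2 called 0 with 2031 at an unadjusted p under 0.05 (4.94%). With SS replicate 1 left out, 0 of 41050 genes were called, and 630 (1.53%) had an unadjusted p under 0.05. Genes are therefore described by their values, and none is said to have risen or fallen unless it passed.

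Neither response that makes up the contrast had a called gene in this fit. The challenge after saline history (SM minus SS) gave 0 of 41083 genes, with 770 (1.87%) at an unadjusted p under 0.05, and the challenge after morphine history (MM minus MS) gave 0, with 940 (2.29%). After leaving out SS replicate 1 both again gave 0 of 41050, with 526 (1.28%) and 2019 (4.92%) at an unadjusted p under 0.05. When the D1 and D2 libraries were fitted together without SS replicate 1, 1 gene of 42833 (0.00233%) passed in MM minus MS. This was Nr4a3, a nuclear receptor induced by neuronal activity, with a log2 difference of 0.79 ± 0.14 (SE) and an adjusted p of 0.021, and it rose after the challenge in that fit. With SS replicate 1 in the same fit its difference was also 0.79, with an SE of 0.17 and an adjusted p of 0.639, so this call rests on leaving that library out.

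Of the 6 named genes with the smallest p in the positive direction, 4 were activity genes with all libraries and 3 without SS replicate 1. Activity genes were 35 of the 5932 genes above background that could be named (0.59%). Their lists were chosen with earlier results of these data known, so these counts are a description. With all libraries the 6 were Slc17a7, Npas4, Nr4a1, Uap1l1, Egr2 and Btg2. When SS replicate 1 was left out they were Slc17a7, Uap1l1, Egr2, Dusp5, Btg2 and Chrd. Uap1l1 (chromosome 2, 25359889 to 25365682) measured 5.43, 6.18 and 7.47 CPM (lowest, median, highest) in MM, 4.06, 5.01 and 7.05 CPM in MS, 4.13, 5.16 and 6.01 CPM in SM, and 4.59, 5.64 and 10.2 CPM in SS. These groups overlapped, with 3 of 7 MM libraries above every MS library. The level of Uap1l1 was 2.12 times background, near the cut. Its interaction was 0.61 ± 0.19 with all libraries, 0.48 ± 0.15 without SS replicate 1 and 0.47 ± 0.16 without MM replicates 3 and 4 as well (unadjusted p = 0.00715). Chrd encodes chordin, a secreted antagonist of bone morphogenetic proteins. It measured 8.62, 10.4 and 12.3 CPM in MM and 5.39, 7.28 and 8.46 CPM in MS, so that 7 of 7 MM libraries lay above every MS library. In SM it was 5.02, 7.42 and 10.7 CPM, and in SS 6.42, 7.99 and 55.9 CPM, where the highest value is that of SS replicate 1. The background cut used the mean over all D1 libraries, that library included, and Chrd lay at 2.08 times background by it. SS replicate 1 raised that mean, so Chrd may have passed the cut only through the library that is left out. Its level without that library was not tested against the cut. The interaction of Chrd was 1.32 ± 0.45 with all libraries and 0.51 ± 0.17 without SS replicate 1 (unadjusted p = 0.00543, adjusted p = 1.0).

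In the negative direction the named genes were Gpr101, Glycam1, Ascl3, AC132253.6, AC132253.2 and AC113961.1 with all libraries. When SS replicate 1 was left out, Pdcl and Gtf3c6 took the place of Ascl3 and AC132253.2. Gpr101 encodes an orphan receptor coupled to Gs. Its interaction was -0.86 ± 0.50 with all libraries (unadjusted p = 0.0942) and -0.83 ± 0.53 without SS replicate 1. Its MS libraries measured 3.87, 5.50 and 28.8 CPM and its MM libraries 3.76, 4.14 and 10.8 CPM, and the 2 groups overlapped. Without MS replicate 2, the highest MS library, its interaction was -0.38.

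The 24 rapid transcription factors of the fixed list mostly had a positive interaction, as did most genes above background. Of the 24, 20 had a positive value, where 49.0% of all genes tested and 73.9% of genes above background did. Among the 5932 genes above background that could be named, 5661 were positive, so the signs alone do not set the factors apart. Only 15 of the factors were themselves above background, and all 24 were counted. Of the 24, 10 had an unadjusted p under 0.05 in the positive direction, against 1.34% of all genes tested and 2.39% of genes above background. In the negative direction there were 0, and none was called. Their median interaction was 0.77, beside -0.01 over all genes tested and 0.36 over the 11563 genes above background. Leaving out SS replicate 1 gave a median of 0.45, with 21 of 24 positive. Then 52.5% of all genes, 72.0% of genes above background and 5206 of the 5932 that could be named were positive. Of the 24, 8 had an unadjusted p under 0.05 in the positive direction, against 0.738% of all genes tested and 0.97% of genes above background. Genes above background then had a median of 0.10. The list was chosen with earlier results of these data known, and its counts are a description. In bulk nuclei, more responding nuclei and more RNA per nucleus cannot be told apart.

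The 2 responses that make up the contrast had different medians in these genes. When SS replicate 1 was left out their median log2 difference was 0.00 in SM minus SS, with 13 of 24 positive (70.7% of genes above background were) and 0 at an unadjusted p under 0.05, where 0.453% of all genes were higher at that level. In MM minus MS the median was 0.42, with 22 of 24 positive (49.6% of all genes and 76.0% of genes above background) and 10 at an unadjusted p under 0.05, where 2.22% of all genes were higher at that level. Among genes above background that share was 4.54%, and it was 0.58% in SM minus SS. With SS replicate 1 included, the medians were -0.18, with 3 of 24 positive (27.9% of genes above background), and 0.41, with 22 of 24 positive (48.5% of all genes and 75.6% of genes above background). That library belongs to SM minus SS and not to MM minus MS.

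The promoters of 4 of these factors are shown with the bases before their transcription start, because CREB binds the cyclic AMP response element (CRE) there and D1 receptor signalling reaches CREB. Sequences are from RefSeq on GRCm38.p6, the build also called mm10, written 5′ to 3′ on the gene's strand. Capitals mark each match to the CRE core TGACG or its reverse complement CGTCA, and in Btg2 the full palindrome TGACGTCA, which holds the core on both strands. The window ends at the base before the start, and that of Nr4a3 is shortened to the 98 bases outside annotated exons. The RefSeq start of Nr4a1 lies 12577 bases inside the gene span used for its counts.
Fos, chr12:85473640-85473889, plus strand: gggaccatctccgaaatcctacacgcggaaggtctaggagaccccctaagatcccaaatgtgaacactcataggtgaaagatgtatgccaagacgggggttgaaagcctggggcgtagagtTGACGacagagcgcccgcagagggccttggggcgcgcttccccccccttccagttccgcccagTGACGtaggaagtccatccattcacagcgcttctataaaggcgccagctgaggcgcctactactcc
Btg2, chr1:134079156-134079405, minus strand: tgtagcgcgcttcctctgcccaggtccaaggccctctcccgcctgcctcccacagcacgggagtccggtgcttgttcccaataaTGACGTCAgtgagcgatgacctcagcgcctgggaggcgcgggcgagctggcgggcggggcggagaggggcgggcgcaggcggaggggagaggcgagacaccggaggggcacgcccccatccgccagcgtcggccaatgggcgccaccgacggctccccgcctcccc
Nr4a1, chr15:101266596-101266845, plus strand: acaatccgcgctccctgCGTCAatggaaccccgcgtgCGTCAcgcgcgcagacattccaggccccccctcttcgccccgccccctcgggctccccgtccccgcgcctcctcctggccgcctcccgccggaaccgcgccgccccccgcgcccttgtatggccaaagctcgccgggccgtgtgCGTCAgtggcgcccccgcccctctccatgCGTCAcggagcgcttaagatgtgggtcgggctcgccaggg
Nr4a3, chr4:48045055-48045152, plus strand: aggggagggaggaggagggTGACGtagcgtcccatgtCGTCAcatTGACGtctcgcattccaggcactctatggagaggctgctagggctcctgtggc
Fos holds 2 core matches, Nr4a1 4 and the shortened Nr4a3 window 3. Over the 250 bases before the start, the core was found in 13 of the 19 rapid factors with a promoter in the table and in 17.8% of all 27025 promoters. The full palindrome was in 1 of the 19 and in 1.59% of all promoters. Among the effectors, the core was in 10 of 17 promoters, and among the ERK feedback genes in 3 of 11. These counts describe letters in a window and say nothing about binding.

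Npas4 is a neuron-specific factor induced by calcium entry (chromosome 19, 4984355 to 4990316). It measured 6.68, 13.3 and 61.6 CPM (lowest, median, highest) in SS, 7.71, 16.4 and 24.3 CPM in SM, 8.40, 13.4 and 24.1 CPM in MS, and 12.3, 32.5 and 77.9 CPM in MM. MM was the high group, with 4 of its 7 libraries above every MS library, while the other groups had similar medians and the 61.6 CPM of SS was replicate 1. Its interaction was 1.82 ± 0.56 (unadjusted p = 0.00263, adjusted p = 0.782), and 1.39 ± 0.52 without SS replicate 1 (unadjusted p = 0.0128). Without that library, the log2 difference of Npas4 was -0.06 ± 0.38 after saline history and 1.33 ± 0.36 after morphine history.

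Fos encodes the AP-1 subunit most used as a marker of neuronal activation (chromosome 12, 85473890 to 85477273). It measured 2.69, 4.62 and 11.6 CPM in SS, 2.57, 3.81 and 5.88 CPM in SM, 2.78, 4.48 and 5.02 CPM in MS, and 3.28, 5.34 and 11.4 CPM in MM. In MM 6 of 7 libraries lay above every MS library, and SS without replicate 1 reached only 5.97 CPM. The interaction of Fos was 1.03 ± 0.34, and 0.77 ± 0.29 without SS replicate 1 (unadjusted p = 0.0132).

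Its AP-1 relatives Fosb and Junb had smaller or less certain values. Fosb, which also gives the stable product deltaFosB that accumulates under repeated drug, had an interaction of 0.65 ± 0.29, and 0.53 ± 0.28 without SS replicate 1. Its MM libraries measured 7.56, 10.7 and 15.7 CPM against 5.17, 7.27 and 9.09 CPM in MS, with 5 of 7 above every MS library. Junb had 1.09 ± 0.60 and 0.70 ± 0.58, and its groups overlapped, with 2 of 7 MM libraries above every MS library.

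The NR4A receptors are orphan nuclear receptors induced by cyclic AMP. Nr4a1 (chromosome 15, 101254269 to 101274795) measured 17.5, 35.4 and 223 CPM in SS, 20.9, 39.3 and 62.0 CPM in SM, 24.2, 35.6 and 45.9 CPM in MS, and 26.0, 59.6 and 159 CPM in MM. MM was again the high group, and the 223 CPM of SS was replicate 1, the next SS library having 79.4 CPM. Its interaction was 1.76 ± 0.55 (unadjusted p = 0.00292) and 1.09 ± 0.44 without SS replicate 1 (unadjusted p = 0.0188).

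Nr4a3 (chromosome 4, 48045153 to 48086447) measured 32.3, 42.3 and 111 CPM in SS, 37.2, 48.5 and 59.7 CPM in SM, 34.5, 40.6 and 50.7 CPM in MS, and 38.8, 64.3 and 113 CPM in MM. Of the 7 MM libraries, 5 exceeded every MS library. The interaction was 0.92 ± 0.30 with all libraries and 0.68 ± 0.25 without SS replicate 1 (unadjusted p = 0.00943). After morphine history its log2 difference was 0.78 ± 0.17 without that library, and after saline history 0.10 ± 0.18.

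Egr2 had close values with and without SS replicate 1, and Btg2 a smaller one without it. Their levels were near the cut, at 2.14 times background for Egr2 and 2.31 times for Btg2. Egr2, a zinc-finger factor (chromosome 10, 67535475 to 67542188), measured 4.55, 6.66 and 8.55 CPM in SS, 5.40, 5.93 and 6.87 CPM in SM, 5.07, 5.94 and 6.92 CPM in MS, and 6.30, 7.36 and 10.97 CPM in MM. In MM 6 of 7 libraries lay above every MS library, and SS replicate 1, at 7.86 CPM, lay inside the range of the other SS libraries. Its interaction was 0.56 ± 0.17 (unadjusted p = 0.00305), and 0.52 ± 0.16 without SS replicate 1 (unadjusted p = 0.00348).

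Btg2 encodes an antiproliferative cofactor induced with the early genes (chromosome 1, 134075170 to 134079120). It measured 2.68, 3.83 and 9.31 CPM in SS, 2.79, 3.91 and 4.67 CPM in SM, 2.70, 3.30 and 4.04 CPM in MS, and 3.91, 4.82 and 6.82 CPM in MM. Here MS was the lowest group by median, and 6 of 7 MM libraries lay above every MS library. The interaction was 0.80 ± 0.25, and 0.59 ± 0.19 without SS replicate 1 (unadjusted p = 0.00465). Egr1 (1.41 ± 0.63) and Egr4 (1.06 ± 0.54) were 0.78 ± 0.56 and 0.80 ± 0.54 without SS replicate 1, with unadjusted p values of 0.175 and 0.151.

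The other members of the list ran from small to middling values. Nr4a2 was 1.22 ± 0.45 with all libraries, 0.42 ± 0.16 without SS replicate 1 (unadjusted p = 0.0135) and 0.33 ± 0.16 without MM replicates 3 and 4 as well. Fosl2, another AP-1 subunit, was 0.92 ± 0.35, 0.64 ± 0.31 and 0.34 ± 0.30 in the same order. The sign was not the same each time for Klf10, a Krüppel-like factor, which was 0.41 ± 0.32, -0.00 ± 0.19 and -0.13 ± 0.19. Klf2, a Krüppel-like factor also made by blood vessel cells, was negative each time, at -0.43 ± 0.31, -0.40 ± 0.31 and -0.35 ± 0.33.

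**Figure D2:**
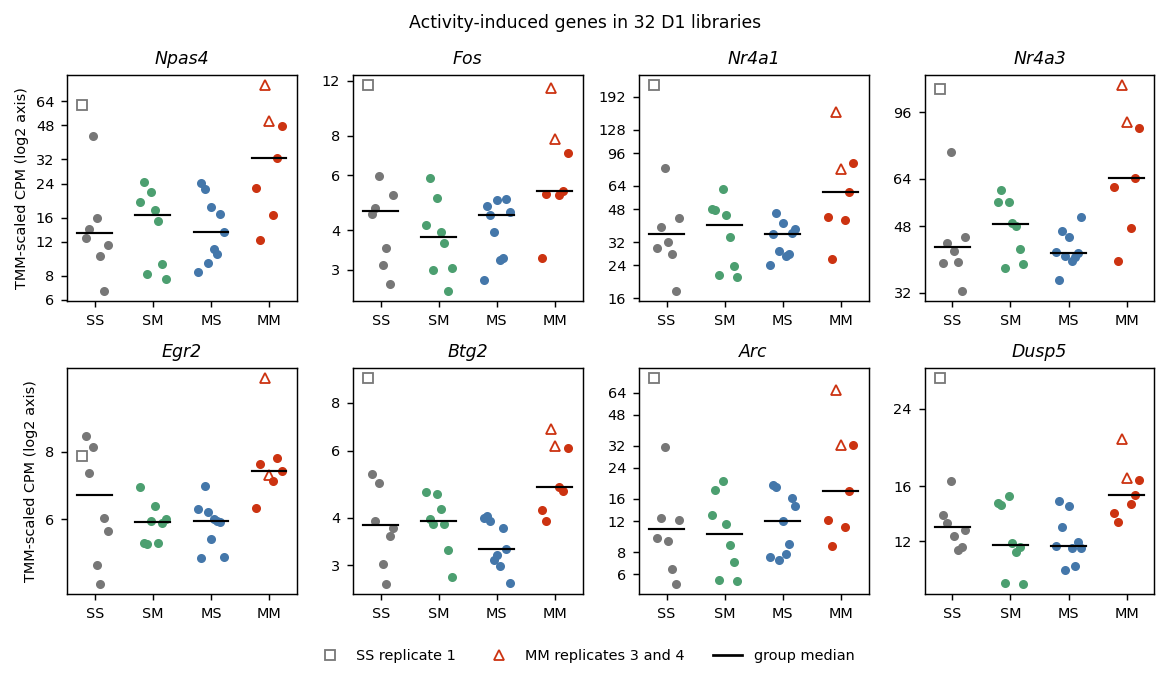
TMM-scaled CPM (log2 axis) of 8 activity-induced genes in each of the 32 D1 libraries by group, with the group median as a line. MM holds the highest median in every panel, SS replicate 1 (open square) is the highest SS library in every panel but Egr2, and MM replicate 3 (upper open triangle) is the highest MM library in each.

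**Figure D3:**
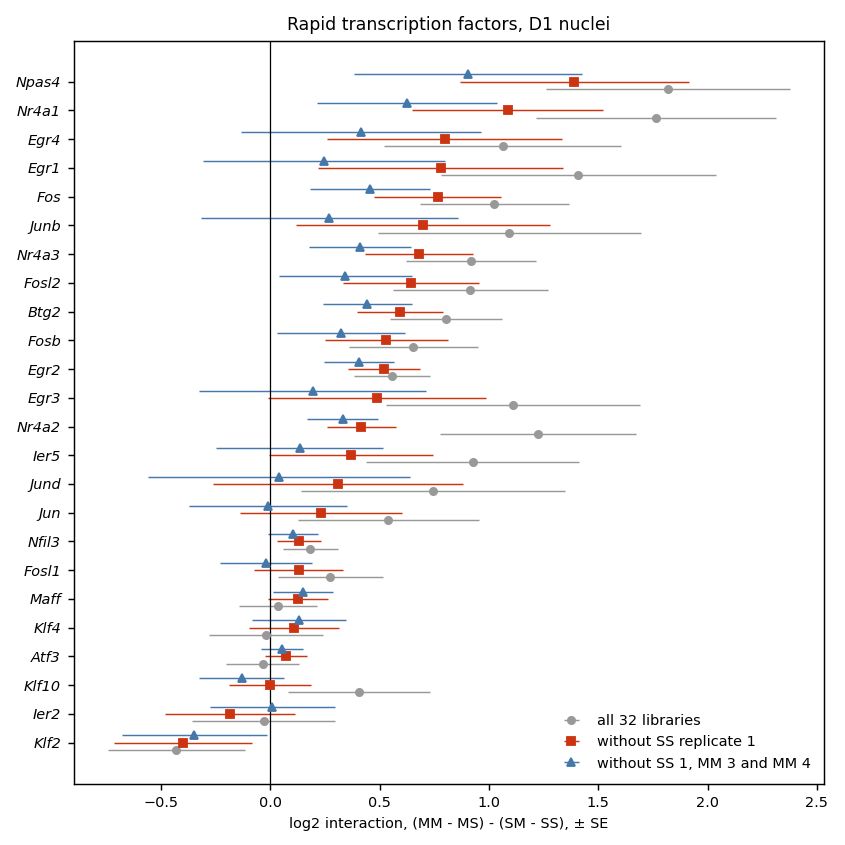
Interaction (log2, with its SE as a bar) of the 24 rapid transcription factors with all 32 libraries, without SS replicate 1, and without SS replicate 1 and MM replicates 3 and 4. Npas4 has the largest value without SS replicate 1, 1.39, and 0.90 when the MM libraries are also left out.

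MM replicate 3, the highest MM library in the 8 plotted genes, was also the highest in Slc17a7, a marker of cortical glutamatergic neurons. This gene measured 8.77, 12.6 and 348 CPM in SS, 8.85, 10.6 and 16.1 CPM in MS and 7.60, 19.4 and 71.9 CPM in MM. Its mean in MM was higher than in MS by 16.1 CPM (exact two-sided permutation test over libraries, p = 0.0107, adjusted over 8 tests of library measures to 0.0853, with SS replicate 1 in the 8 tests or out of them). MM replicates 3 and 4, at 71.9 and 40.3 CPM, were the high ones, and SM stayed between 7.12 and 13.3 CPM. The lowest MM library in Slc17a7, replicate 7 at 7.60 CPM, had 84.9 CPM of Nr4a1 and 47.9 CPM of Npas4. MM replicate 4 had 78.7 and 50.5 CPM of these. SS replicate 4 had 10.9 CPM of Slc17a7 and 42.2 CPM of Npas4. Background density was 0.320 CPM per kilobase in MM replicate 7, 0.323 in SS replicate 4 and 0.416 in MM replicate 4. Its median over the D1 libraries was 0.472. In each D1 group the library with the lowest background also had the highest Npas4. What part of these levels goes with background was not tested library by library. The interaction of Slc17a7 was 3.71 ± 0.84 with all libraries and 1.77 ± 0.46 without SS replicate 1. With the 61 libraries of both cell types in 1 fit it was 3.74 ± 0.66 and passed (adjusted p = 0.0208, 1 gene of 42870 called, 0.00233%), while without SS replicate 1 that fit gave 1.77 ± 0.36 and an adjusted p of 0.393.

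Of the 10 cortical glutamatergic markers, only Slc17a7 was above background. Their summed level ran from 390 to 1196 CPM in SS, 384 to 443 CPM in SM, 389 to 433 CPM in MS and 378 to 458 CPM in MM, and 8 of 10 had a positive interaction, or 6 of 10 without SS replicate 1. None of the 10 was at 0, and the 9 others lay at 1.15 to 1.77 times background. The part of cortical RNA in the activity genes was not tested. When SS replicate 1 and MM replicates 3 and 4 were left out, the rapid factors had a median interaction of 0.22 with 20 of 24 positive, and 3 of 24 had an unadjusted p under 0.05 in the positive direction, against 0.62% of all genes tested. Genes above background then had a median interaction of 0.02. Npas4 was then 0.90 ± 0.52, Nr4a3 0.41 ± 0.23, Fos 0.45 ± 0.28, Egr2 0.41 ± 0.16 (unadjusted p = 0.0171) and Btg2 0.44 ± 0.20 (unadjusted p = 0.0366).

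Background reads differed between libraries too. Their density was 0.412 CPM per kilobase in MM and 0.484 in MS on average (exact two-sided permutation test, p = 0.105), and 0.465 in SM and 0.443 in SS (exact two-sided permutation test, p = 0.798). Leaving out SS replicate 1 put the SS mean at 0.499, above that of SM (exact two-sided permutation test, p = 0.591), so the order of SM and SS turned with that library. With the log2 background density of each library as a covariate and all 32 libraries, the rapid factors had a median interaction of 0.32, 21 of 24 were positive (51.2% of all genes and 56.5% of genes above background were) and 7 had an unadjusted p under 0.05 in the positive direction, against 1.21% of all genes tested. The genes above background had a median of 0.02 in that fit, and 1.46% of them were at that level in the positive direction. With the covariate and without SS replicate 1 the median of the rapid factors was 0.33, with 21 of 24 positive (55.0% of all genes and 61.9% of genes above background) and 9 at that level, against 1.99%. In that fit 3.09% of all genes were at an unadjusted p under 0.05, 1.1% of all genes in the negative direction, and 0 were called. Among genes above background, 2.78% had an unadjusted p under 0.05 in the positive direction.

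Activity-induced effectors had a smaller median than the transcription factors. Only 13 of the 24 were above background, and all were counted. All 24 had a positive interaction with all libraries, median 0.56. An unadjusted p under 0.05 was seen in 6, against 1.34% of all genes tested and 2.39% of genes above background. Leaving out SS replicate 1 gave a median of 0.22, with 22 of 24 positive and 3 at that level, against 0.738% and 0.97%. Without MM replicates 3 and 4 as well, the median was 0.06, 16 of 24 were positive and 0 were at that level.

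Arc, which drives the removal of AMPA receptors from synapses (chromosome 15, 74669083 to 74672570), measured 5.28, 10.9 and 77.8 CPM in SS, 5.48, 10.2 and 20.3 CPM in SM, 7.25, 12.002 and 19.2 CPM in MS, and 8.68, 17.8 and 66.8 CPM in MM. The groups overlapped, with 3 of 7 MM libraries above every MS library. Its interaction was 1.92 ± 0.66, and 1.19 ± 0.57 without SS replicate 1 (unadjusted p = 0.0447). Sik1, a kinase that restrains CREB coactivators, had 0.65 ± 0.29 and 0.37 ± 0.21. Per1, a clock gene with a CRE, had 1.46 ± 0.66 and 0.69 ± 0.56. Homer1, whose short form remodels synaptic scaffolds, had 0.99 ± 0.52 and 0.17 ± 0.33, and -0.02 ± 0.19 with the background covariate.

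The ERK feedback genes had smaller values, apart from Dusp5. Only 7 of the 14 genes were above background, and all were counted. The 14 had a median interaction of 0.51, with 13 of 14 positive. In the positive direction 5 were at an unadjusted p under 0.05, against 1.34% of all genes tested and 2.39% of genes above background. Without SS replicate 1 the median was 0.16, with 13 of 14 positive and 1 at that level, against 0.738% and 0.97%. Dusp5, which was that gene, is a nuclear phosphatase of ERK (chromosome 19, 53529109 to 53542431). It measured 11.5, 12.9 and 28.2 CPM in SS, 9.59, 11.8 and 15.2 CPM in SM, 10.3, 11.7 and 14.8 CPM in MS, and 13.3, 15.3 and 20.5 CPM in MM. Its MM libraries all lay above the MS median, and 4 of 7 lay above every MS library. Its level was 2.22 times background, near the cut. The interaction of Dusp5 was 0.65 ± 0.21 with all libraries, 0.46 ± 0.15 without SS replicate 1 (unadjusted p = 0.00432), 0.35 ± 0.16 without MM replicates 3 and 4 as well, and 0.41 ± 0.10 with the covariate (unadjusted p = 0.000202). Among the plotted activity genes, a covariate value is given only for Dusp5. Dusp1, the broader MAP kinase phosphatase, was 0.07 ± 0.12 and 0.09 ± 0.10, but its level was only 1.45 times background.

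Opioid receptors and peptides showed no gene at an unadjusted p under 0.05 in either direction. Oprm1, the mu opioid receptor through which morphine acts, measured 121, 131 and 179 CPM in SS, 117, 132 and 150 CPM in SM, 120, 128.2 and 144 CPM in MS, and 117, 127 and 139 CPM in MM. These ranges overlapped throughout, and the density of Oprm1 was 1.04 times background over its long gene span. Its interaction was 0.00 ± 0.12 with all libraries and -0.06 ± 0.08 without SS replicate 1. Oprk1, the kappa receptor for dynorphin, had 0.60 ± 0.42 and 0.06 ± 0.30. The 8 genes of the list had a median of 0.16 with all libraries and -0.02 without SS replicate 1.

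Peptides and receptors that define the projection neurons also had no named gene at an unadjusted p under 0.05. Drd1 measured 32.8, 52.9 and 258 CPM in SS, 25.2, 66.2 and 96.4 CPM in SM, 36.2, 50.7 and 165 CPM in MS, and 39.3, 57.2 and 132 CPM in MM, with all groups overlapping. Its interaction was 0.47 ± 0.53, and -0.13 ± 0.44 without SS replicate 1, the library at 258 CPM. Pdyn, the precursor of dynorphin, measured 34.7, 55.4 and 151 CPM in SS, 30.2, 65.4 and 114 CPM in SM, 35.8, 51.0 and 180 CPM in MS, and 55.4, 64.7 and 136 CPM in MM. Its interaction was 0.25 ± 0.48 and -0.04 ± 0.46. For Tac1, which encodes substance P, the values were 0.58 ± 0.47 and 0.21 ± 0.44. For Penk, the enkephalin precursor, they were 0.44 ± 0.58 and 0.32 ± 0.61, and for Drd2 0.72 ± 0.39 and 0.35 ± 0.33. For the 9 D1 markers the median was 0.35 with all libraries and -0.04 without SS replicate 1, and for the 9 D2 markers tested 0.44 and 0.33.

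Glucocorticoid-responsive genes, which answer stress hormones that injections can raise, had a median interaction of 0.17, and 0.02 without SS replicate 1, with 0 of 18 at an unadjusted p under 0.05 in either. Fkbp5, a chaperone induced by glucocorticoids, was 0.03 ± 0.14 and -0.04 ± 0.10. Sgk1, a kinase induced by them, was 0.27 ± 0.33 and -0.07 ± 0.24.

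The broad neuronal lists had positive medians that were smaller without SS replicate 1. Ion channels had a median of 0.76 with all libraries and 0.12 without it, postsynaptic scaffolds 0.81 and 0.18, vesicle release genes 0.74 and 0.14, glutamate receptors 0.51 and 0.04, GABA receptors 0.53 and 0.03, and dopamine and cyclic AMP signalling genes 0.58 and 0.11. The genes above background as a whole had 0.36 and 0.10. With the background covariate and all libraries the same lists lay between -0.04 and 0.06. Members at an unadjusted p under 0.05 in the positive direction were 2 of 39 ion channels, 0 of 19 scaffolds, 1 of 28 vesicle release genes, 1 of 24 glutamate receptors, 0 of 14 GABA receptors and 3 of 37 dopamine and cyclic AMP genes, against 1.34% of all genes tested and 2.39% of genes above background. Without SS replicate 1 there was 1 glutamate receptor at that level and 0 members of the other lists, against 0.738% and 0.97%. Leaving out SS replicate 1 took the median of SM minus SS from -0.50 to 0.14 for the ion channels. Their median in MM minus MS, which does not hold that library, was 0.30.

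Markers of glial, endothelial and ependymal cells had medians between -0.19 and 0.14. With all libraries and then without SS replicate 1, the medians were 0.02 and 0.14 for 12 oligodendrocyte markers, -0.19 and -0.04 for 7 precursor markers, -0.00 and 0.08 for 10 astrocyte markers, -0.02 and 0.02 for 10 microglia markers, -0.16 and -0.06 for 9 endothelial markers, and -0.09 and -0.02 for 7 ependymal and choroid markers. Of the precursor, microglia, endothelial and ependymal markers, 0 were above background. Mitochondrially encoded transcripts, which reach nuclei as carried-over cytoplasm, had a median interaction of 0.16, and 0.01 without SS replicate 1. In that fit their medians were 0.53 in SM minus SS and 0.54 in MM minus MS, with 7 of 7 positive in each and none called. In each 3 of 7 had an unadjusted p under 0.05, where 0.453% of all genes were higher at that level in SM minus SS and 2.22% in MM minus MS. Among genes above background these shares were 0.58% and 4.54%. With all libraries the medians were 0.38 and 0.54, again with 7 of 7 positive, and 0 and 2 were at that level, where 216 (SM minus SS) and 406 (MM minus MS) of 41083 genes were higher.

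**Figure D4:**
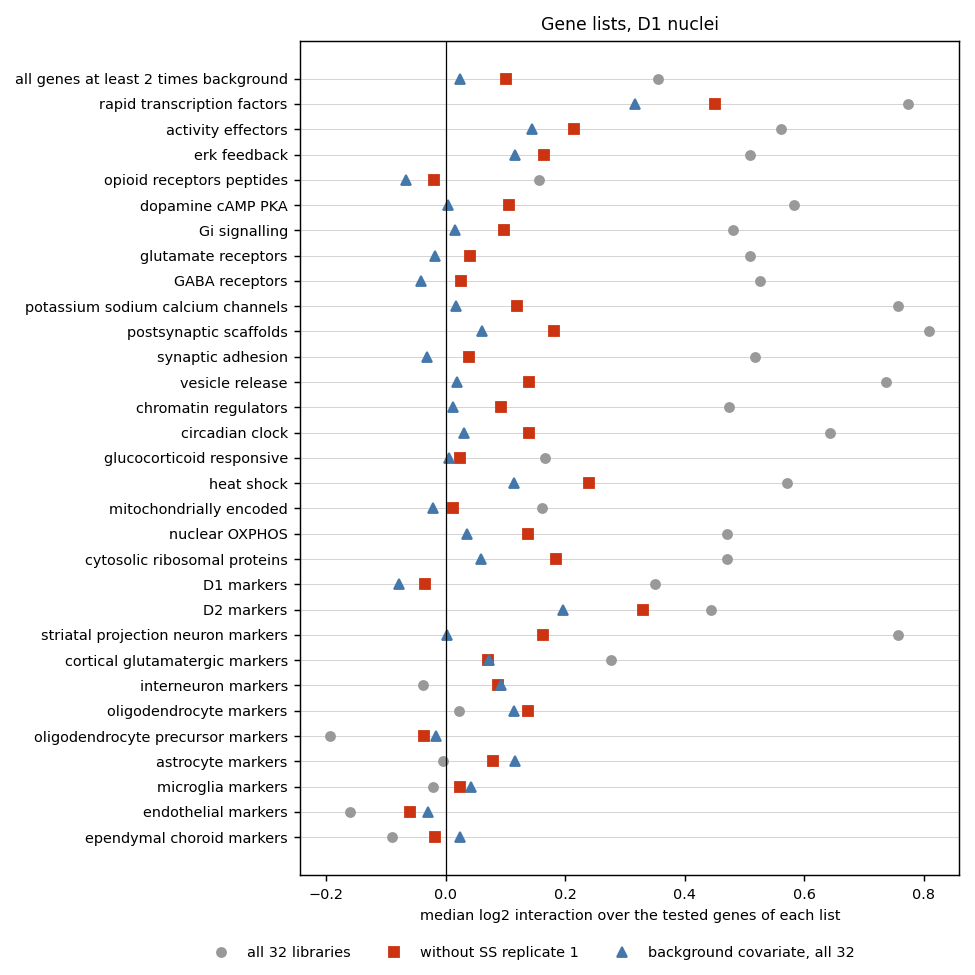
Median interaction (log2) over the tested genes of each fixed list with all 32 libraries, without SS replicate 1, and with all 32 libraries and background density as a covariate. The rapid transcription factors lie farthest to the right without SS replicate 1, at 0.45, and with the covariate, at 0.32. With all 32 libraries and no covariate the postsynaptic scaffolds lie farther to the right than they do.

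The same contrast was taken in D2 nuclei, from mice with the same reporter and the driver D2-Cre under the same 4 treatments (7 SS, 7 SM, 8 MS and 7 MM libraries). The 24 rapid factors had a median interaction of -0.25 there, with 3 of 24 positive, 0 at an unadjusted p under 0.05 in the positive direction and 1 in the negative, against 0.553% of all genes tested. That fit held D1 SS replicate 1, which enters D2 values through the shared spread and scaling. Without it the D2 median was -0.25 again, with 1 of 24 at that level in the positive direction (1.76% of all genes) and 2 in the negative (0.897%). The difference of the 2 interactions, D1 minus D2, was tested over 42870 genes in 61 libraries. It called 0 genes (0.0%), with a smallest adjusted p of 0.671 and 2107 (4.91%) at an unadjusted p under 0.05, 1.37% of all genes in the negative direction. Among the rapid factors 20 of 24 were positive with a median of 1.12, and 15 were at that level in the positive direction, against 3.54% of all genes tested. Without D1 SS replicate 1 the median was 0.77 and 13 were at that level, against 0.967%.

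In D2 nuclei MS had the highest median of Npas4, Nr4a1 and Arc. Npas4 measured 8.41, 11.2 and 22.1 CPM in SS, 6.80, 11.2 and 18.4 CPM in SM, 10.6, 22.5 and 39.1 CPM in MS, and 8.23, 11.99 and 15.8 CPM in MM. Its D2 interaction was -0.80 ± 0.52, and the D1 minus D2 difference was 2.63 ± 0.72 (unadjusted p = 0.00056), or 2.19 ± 0.68 without D1 SS replicate 1. The D2 medians of Nr4a1 were 30.1 CPM in SS, 27.9 in SM, 50.3 in MS and 28.6 in MM. In MM minus MS the 24 rapid factors had a D2 median of -0.32, with 5 of 24 positive and 8 at an unadjusted p under 0.05 in the negative direction, against 0.604% of all genes tested, and none called. Leaving D1 SS replicate 1 out of the fit gave a D2 median of -0.31 and 12 of 24 at that level in the negative direction, against 0.953%, and none called. Egr2 had -0.34 ± 0.16 in D2, with a difference of 0.91 ± 0.22 (unadjusted p = 0.00014), or 0.86 ± 0.22 without that library. Dusp5 had -0.35 ± 0.19 in D2, with a difference of 1.01 ± 0.26, or 0.81 ± 0.20. Effectors had a D2 median of -0.17 and ERK feedback genes of -0.21. D2 nuclei came from other mice than D1 nuclei, so the difference also carries any difference between the 2 sets of animals.

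**Figure D5:**
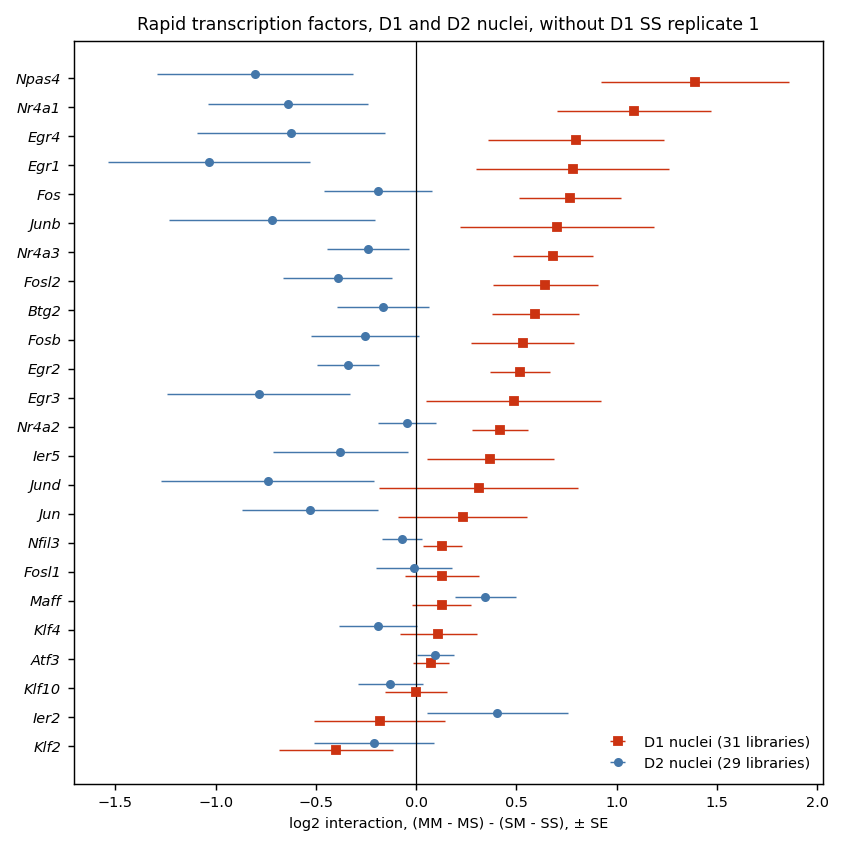
Interaction (log2, with its SE as a bar) of the 24 rapid transcription factors in D1 nuclei (31 libraries, without SS replicate 1) and D2 nuclei (29 libraries), from 1 fit of both. Most D1 values lie to the right of 0 and 21 of 24 D2 values to the left, and 0 genes passed the adjusted threshold.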

How the data were processed

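RNA of sorted nuclei was prepared with a stranded total RNA kit. The deposited raw table holds counts per gene, and the submitters' processing notes name featureCounts, DESeq2 and mm10, but the sources used here do not name an aligner or say how strand was counted. The authors also deposited FPKM values, which were used only to recover gene lengths. These lengths underlie the densities, the background and its cut. They match counts over whole gene spans in all 54281 genes where both were known. Antisense and overlapping genes may therefore share reads.

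Counts were tested with edgeR 4.0.16 (quasi-likelihood, TMM scaling, its expression filter, robust dispersion) in R 4.3.3, and p-values were adjusted by the Benjamini-Hochberg method over all genes tested. Errors are SE. CPM are TMM-scaled. Alternatives used limma 3.58.1, DESeq2 1.42.0, a background covariate, other scalings and filters, the 61 libraries in 1 fit, a replicate block and each library left out. The calls of the pipeline were tested on simulated data with the same spread for all genes. These held no outlying library and no varying background, so that test does not cover those features. Library measures were compared by exact permutation, repeated without SS replicate 1 after seeing the data.

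Named genes were those ranked in the first 6 by p, separately for positive and negative values, among genes averaging 1 log2 CPM or more and at least 2 times background, with and without SS replicate 1, a fixed set of activity, opioid and dopamine genes, and up to 3 members of each list described. The level cuts used means over all D1 libraries, also for the ranking without SS replicate 1. The members and lists were chosen with earlier results of these data known. The fits without MM replicates 3 and 4, and those that join a change of test, scaling, block or covariate to leaving out SS replicate 1, were added after seeing the data. Promoters were matched by symbol for 47 of the 62 activity genes.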

Additional observations from a re-analysis of the deposited data

Results flagged for a closer look

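Of 64 sets of values (16 measures in each of the 4 groups), 14 held a library far from the rest of its group by Dixon's test, and chance alone gives about 1 in 20. SS replicate 1 was the highest SS library in 8 of them, with 11.6 CPM of Fos, 223 CPM of Nr4a1, 9.31 CPM of Btg2, 77.8 CPM of Arc, 28.2 CPM of Dusp5, 348 CPM of Slc17a7, 258 CPM of Drd1 and 179 CPM of Oprm1. MM replicate 3 was far above the other MM libraries in Egr2 (10.97 CPM) and Arc (66.8 CPM). MS replicate 2 stood apart in Drd1 (165 CPM), in Pdyn (180.4 CPM) and in background density, where it was the lowest MS library at 0.278 CPM per kilobase. MS replicate 9 was the highest MS library in Slc17a7, at 16.1 CPM.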

How the results depend on the processing

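The number of genes passing the interaction test was 0 under every alternative run except 3, each with 1 gene: limma voom with quality weights (Gm2225), the 61 libraries in 1 fit (Slc17a7, 3.74) and that fit with DESeq2's size factors (Slc17a7, 4.26), which also called Slc17a7 after saline history (-2.95). After morphine history voom called 1 gene, Lrrc3. Leaving out each library in turn gave 0 called genes each time, and 596 (without SM replicate 8) to 3796 (without MS replicate 2) at an unadjusted p under 0.05. That count was also 630 without SS replicate 1, 2252 without SM replicate 2, and 2033, 1623 and 1453 without SS replicates 7, 8 and 6. It ran from 517 to 2011 after saline history (without SM replicate 8 and SS replicate 7) and from 742 to 2192 after morphine history (without MM replicate 3 and MS replicate 2). The median of the rapid factors was 0.27 with voom, 0.32 with the covariate, 0.33 with the covariate and without SS replicate 1, 0.22 without that library and MM replicates 3 and 4, and 0.45 to 0.88 over single libraries left out. That of the effectors was 0.061 without the 3 libraries and 0.22 to 0.67 over single libraries. For the ERK feedback genes it was 0.071 with voom, 0.21 over genes above background, 0.12 with the covariate with or without SS replicate 1, 0.080 without the 3 libraries, and 0.16 to 0.57 over single libraries. Without SS replicate 1 it was 0.10 with the replicate block and 0.17 with DESeq2 or its size factors.

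Several named genes changed sign, and not only those near 0: with all libraries Homer1 was 0.99, Oprk1 0.60, Tac1 0.58 and Drd1 0.47. With the covariate, with all libraries and then without SS replicate 1, Homer1 was -0.022 and -0.023, Drd1 -0.27 and -0.25, Oprm1 -0.071 and -0.068, Oprk1 -0.062 and -0.048, Pdyn -0.16 and -0.090, Fkbp5 -0.059 and -0.055 and Sgk1 -0.18 and -0.16. Without the 3 libraries, Homer1 was -0.035, Drd1 -0.28, Oprm1 -0.072, Oprk1 -0.083, Pdyn -0.22, Tac1 -0.071, Fkbp5 -0.053 and Sgk1 -0.13. With voom, Drd1 was -0.087, Oprm1 -0.067, the Fkbp5 interaction log2 value -0.0057 and Sgk1 -0.036. Over genes above background, Drd1 was -0.083, Pdyn -0.089 and Sgk1 -0.20. Without SS replicate 1 and with the replicate block, Drd1 was -0.13, Oprm1 -0.042, Fkbp5 -0.033 and Sgk1 -0.10. With that library left out and DESeq2, then its size factors, Drd1 was -0.13 and -0.13, Oprm1 -0.058 and -0.058, Pdyn -0.039 and -0.038, Fkbp5 -0.042 and -0.042 and Sgk1 -0.075 and -0.075. Oprm1 was -0.0041 with no filter. Over single libraries left out, Drd1 ran from -0.13 to 0.79, Oprm1 from -0.061 to 0.027, Pdyn from -0.035 to 0.58, Fkbp5 from -0.042 to 0.074 and Sgk1 from -0.075 to 0.41. The cause was not tested.

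By correlation, replicate numbers showed no general pairing of the libraries: 14 of 45 same-numbered pairs correlated over 0.1 and 3 of 32 libraries correlated best with their own number. Same-numbered pairs ran from -0.71 to 0.76. Whether a number stands for a shared day or batch was not tested. The replicate block gave 0 called genes, 497 at an unadjusted p under 0.05 and a median of 0.73 for the rapid factors.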
